A study of Mus musculus with 15 samples.

Results

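The genes described here are 7 aquaporins, Aqp1, Aqp2, Aqp3, Aqp4, Aqp6, Aqp7 and Aqp11, and the vasopressin V2 receptor gene Avpr2, a fixed set of 8 of the 13923 genes that had an annotated transcript listed for all 15 mice. They were found by matching the Ensembl transcript identifiers to gene symbols in GENCODE release M21 for mouse and adding up the FPKM values (fragment counts scaled to transcript length and library size) of each gene's transcripts. All 8 passed the filter on low values, 1 FPKM or more in 5 mice or more, which 12359 genes passed. The question was whether their mRNA levels in the kidney differed between mice infused with angiotensin II, mice infused with saline and infused mice given Qingda granule (QDG), a preparation of 4 medicinal herbs.

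Each group held 5 male wild type C57BL/6 mice, bought at 8 weeks of age. Control mice had saline pumps for 28 days and water by gavage. Ang II mice were infused with angiotensin II, a peptide that raises blood pressure, at 500 ng/kg/min over the same time and also received water by gavage. Ang II + QDG mice had the same infusion plus QDG at 1.145 g/kg/day by gavage. The RNA came from bulk renal tissue. Fewer cells of a type and less RNA per cell therefore cannot be told apart.

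Aquaporins are membrane channels for water, and some of them also pass glycerol. Vasopressin binds the V2 receptor on principal cells of the collecting duct, the receptor raises cyclic AMP, protein kinase A phosphorylates aquaporin 2, and vesicles carrying it fuse with the apical membrane. Water entering there leaves through aquaporins 3 and 4 on the basolateral side. Aquaporin 1 is the channel of the proximal tubule and the thin descending limb, aquaporin 7 is a glycerol and water channel of the straight proximal tubule and of fat cells, aquaporin 6 lies in vesicles of intercalated cells, and aquaporin 11 is found in the endoplasmic reticulum of proximal tubule cells.

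The stretch before the annotated start of 3 genes of the principal cell water pathway is printed to show the elements in front of the hormone-regulated channel (Aqp2), the channel whose level moved with it from mouse to mouse (Aqp3) and the receptor (Avpr2). The sequences are from RefSeq on GRCm38.p6, 249 bases each, 5′ to 3′ on the gene's strand, at chr15:99578806-99579054 (plus strand), chr4:41098185-41098433 (minus strand) and chrX:73891852-73892100 (plus strand). Capitals mark CGTCA, the core of the cyclic AMP response element, GATAA, the core bound by GATA factors, and TATAA, the start of a TATA box, each searched on both strands.
Aqp2: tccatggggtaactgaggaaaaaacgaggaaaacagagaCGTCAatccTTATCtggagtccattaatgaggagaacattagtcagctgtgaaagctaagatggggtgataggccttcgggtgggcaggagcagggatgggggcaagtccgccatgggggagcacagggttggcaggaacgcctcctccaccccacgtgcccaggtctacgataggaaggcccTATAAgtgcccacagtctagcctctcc
Aqp3: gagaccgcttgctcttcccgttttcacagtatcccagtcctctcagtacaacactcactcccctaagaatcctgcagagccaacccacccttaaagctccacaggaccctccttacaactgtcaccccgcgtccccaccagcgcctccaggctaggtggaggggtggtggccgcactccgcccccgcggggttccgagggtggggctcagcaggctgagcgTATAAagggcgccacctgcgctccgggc
Avpr2: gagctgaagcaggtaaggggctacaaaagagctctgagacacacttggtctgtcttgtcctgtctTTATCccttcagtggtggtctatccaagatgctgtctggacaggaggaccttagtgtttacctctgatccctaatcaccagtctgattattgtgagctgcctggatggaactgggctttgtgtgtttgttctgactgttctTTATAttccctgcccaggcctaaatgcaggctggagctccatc
No marked matches overlap one another in these 3 stretches. Of all 32851 promoter entries, 17.7% held CGTCA, 22.5% held GATAA and 22.8% held TATAA in the same window. Among the 8 entries of the 7 genes with one, CGTCA was in 1 (Aqp2), GATAA in 3 (Aqp2, Avpr2 and 1 of 2 entries of Aqp7) and TATAA in 3 (Aqp2, Aqp3 and Avpr2). Aqp2 was the entry that held all 3, with both strands counted. The GATAA matches of Aqp2 and Avpr2 lie on the opposite strand and are printed as TTATC. The TATAA match of Avpr2 also lies there, printed as TTATA, so only those of Aqp2 and Aqp3 are on the gene's strand. These matches are descriptions of letters, not of binding.

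The libraries implied totals of 68900000 to 81300000 reads or fragments per mouse. Mice are numbered 1 to 5 within a group, and the numbers pair no mice. Markers of the expected kidney cells were present in all mice, with sums of 99.3 to 169 FPKM over 6 principal cell genes, 99 to 170 over 7 intercalated cell genes and 5446 to 17232 over 8 proximal tubule genes. Markers of other tissue varied more: 5 urothelial genes summed to 0.77 to 18.6 FPKM and 5 adipocyte genes to 0.0135 to 99.4 FPKM. The adipocyte sum was highest in Ang II mouse 1 (99.4), Control mouse 2 (44.5) and Ang II + QDG mouse 5 (41.9). Red blood cell genes summed to 545 to 1362 FPKM (Control), 1115 to 1943 (Ang II) and 1557 to 2818 (Ang II + QDG).

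None of the 8 genes passed an adjusted p under 0.05 in any of the 3 comparisons (limma on log2(FPKM + 1), Benjamini-Hochberg over all 12359 genes). Of all genes tested, 5.95% passed in Ang II vs. Control, 1.81% in Ang II + QDG vs. Ang II, and 0.129% in Ang II + QDG vs. Control. At an unadjusted p under 0.05 the counts were 0, 2 and 1 of the 8 genes, where 22.7%, 16.4% and 14.4% of all genes passed. No gene of the set had groups that did not overlap in any comparison, against 7.92%, 5% and 3.64% of all genes, and none met a fold change of 2 with an unadjusted p under 0.05, against 1.04%, 0.809% and 0.72%.

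The 8 genes lay at very different levels, and the order was nearly fixed. Over all 15 mice the mean FPKM was 405 for Aqp1, 158 for Aqp2, 64.5 for Aqp3, 20.5 for Aqp11, 10.9 for Aqp6, 5.82 for Aqp7, 4.58 for Aqp4 and 1.68 for Avpr2. Each of the first 4 exceeded the next gene in the order in 15 of 15 mice. The lower neighbours did not separate in every mouse, with Aqp6 above Aqp7 in 12 of 15, Aqp7 above Aqp4 in 9 of 15 and Aqp4 above Avpr2 in 12 of 15. Behind these levels stood 54976 to 99405 implied reads per mouse for Aqp1 and 77 to 276 for Avpr2, so counting error weighs most on the receptor.

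**Figure D1:**
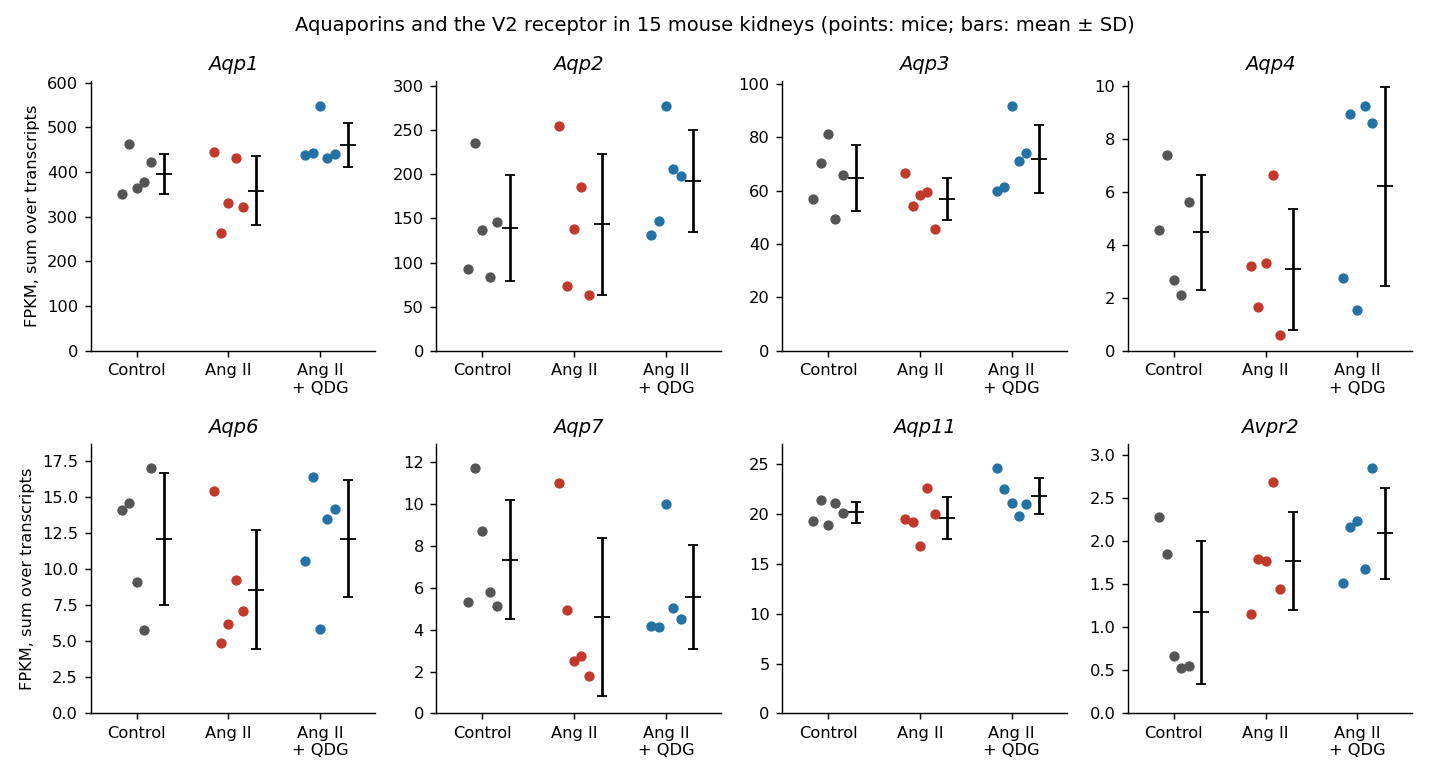
FPKM of each gene (vertical axis, linear from 0) in each mouse of the 3 groups (points), with the group mean and SD (black bars, n = 5). The groups overlap for all 8 genes, and Aqp11 has the smallest ratio of its highest to its lowest mouse, 1.47 (16.8 to 24.6 FPKM).

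Aqp2 (ENSMUSG00000023013, chromosome 15, 99579055 to 99584547, plus strand, GRCm38), the channel that vasopressin sends to the apical membrane, varied far more between mice than between groups. Control mice 1 to 5 had 92.3, 235, 137, 83.7 and 146 FPKM. Ang II mice had 255, 73.3, 138, 186 and 63.7 FPKM, and Ang II + QDG mice had 131, 147, 278, 206 and 198 FPKM. Control mouse 2, Ang II mouse 1 and Ang II + QDG mouse 3 were each the highest of their group, and the 3 ranges overlapped from 131 to 235 FPKM. The group means were 139 ± 60.2, 143 ± 79.8 and 192 ± 57.8 FPKM (SD, n = 5 each). Ang II vs. Control gave a log2 fold change of −0.05 (standard error, SE, 0.38, adjusted p = 0.96 from limma), with a 95% confidence interval of 0.549 to 1.7 on the fold scale of FPKM + 1. Its sign turned with the mice included, from −0.30 without Ang II mouse 1 to 0.19 without Ang II mouse 5. Ang II + QDG vs. Ang II gave 0.56 (SE 0.38, adjusted p = 0.5) and Ang II + QDG vs. Control 0.51 (adjusted p = 0.569). The within-group SD of Aqp2 on the log2 scale was 0.65, larger than in 94.5% of the 344 genes within 0.5 log2 units of its level, whose median SD was 0.15.

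Aqp3 (ENSMUSG00000028435, chromosome 4, 41092722 to 41098183, minus strand), the basolateral water and glycerol channel of principal cells, was steadier. Control mice had 56.8, 70.4, 81.2, 49.5 and 65.9 FPKM, Ang II mice 66.6, 54.1, 58.5, 59.5 and 45.6, and Ang II + QDG mice 60, 61.5, 91.9, 71.2 and 74.2. Ang II + QDG mouse 3 was the highest of all and Ang II mouse 5 the lowest, as for Aqp2, while the groups overlapped. The log2 fold change was −0.17 with Ang II (SE 0.14, adjusted p = 0.516) and 0.32 when QDG was added to it (SE 0.14, unadjusted p = 0.0409, adjusted p = 0.275 from limma).

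Aqp4 (ENSMUSG00000024411, chromosome 18, 15389496 to 15410982, minus strand), the other basolateral channel, had the widest span of the set, 15.3-fold between its lowest and highest mouse. Control mice had 4.56, 7.39, 2.65, 2.09 and 5.62 FPKM. Ang II mice had 3.2, 1.66, 3.3, 6.62 and 0.604 FPKM, and Ang II + QDG mice had 2.73, 8.92, 1.54, 9.25 and 8.61 FPKM. The Ang II + QDG mice fell into 3 values above every other mouse of the study and 2 at the low end, so the higher group mean of 6.21 ± 3.75 FPKM, against 3.08 ± 2.28 in Ang II and 4.46 ± 2.17 in Control, rested on 3 mice. The difference of 0.80 (log2) in Ang II + QDG vs. Ang II (SE 0.48, adjusted p = 0.438) and that of −0.51 in Ang II vs. Control (SE 0.48, adjusted p = 0.57) did not pass. Only 1 of 11 annotated Aqp4 transcripts was listed.

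One gene of the osmotic response and the genes of the urinary tract lining were high in some of the mice with high Aqp2 or Aqp4. Akr1b3, the aldose reductase that makes the osmolyte sorbitol, had 173 FPKM in Control mouse 2, 135 and 73.5 in Ang II mice 1 and 4, and 184 and 106 in Ang II + QDG mice 4 and 5, against 21.5 to 54.5 in the other 10 mice. It was picked from a fixed list of medullary and osmotic genes after its values were seen. These 5 mice are thus those highest in Akr1b3. Of the other 11 tested genes of that list, 1 was higher in each of the 5 than in each of the other 10, the urea transporter gene Slc14a2, at a low level (at least 1.09 against at most 0.607 FPKM). The share of all genes that set these 5 mice apart was not counted. Of those 5 mice, Aqp4 was at 6.62 to 9.25 FPKM in all but Ang II mouse 1, which had 3.2. The summed urothelial genes were 7.72 FPKM in Control mouse 2, 18.6 and 9.44 in Ang II mice 1 and 4, and 9.91 and 5.47 in Ang II + QDG mice 4 and 5. In the other 10 mice the sum was 0.77 to 6.93 FPKM, with 6.93 and 5.31 in Ang II + QDG mice 2 and 3, so the urothelial sum did not separate the same 5 mice. The part of these genes in the differences between groups was not tested.

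**Figure D2:**
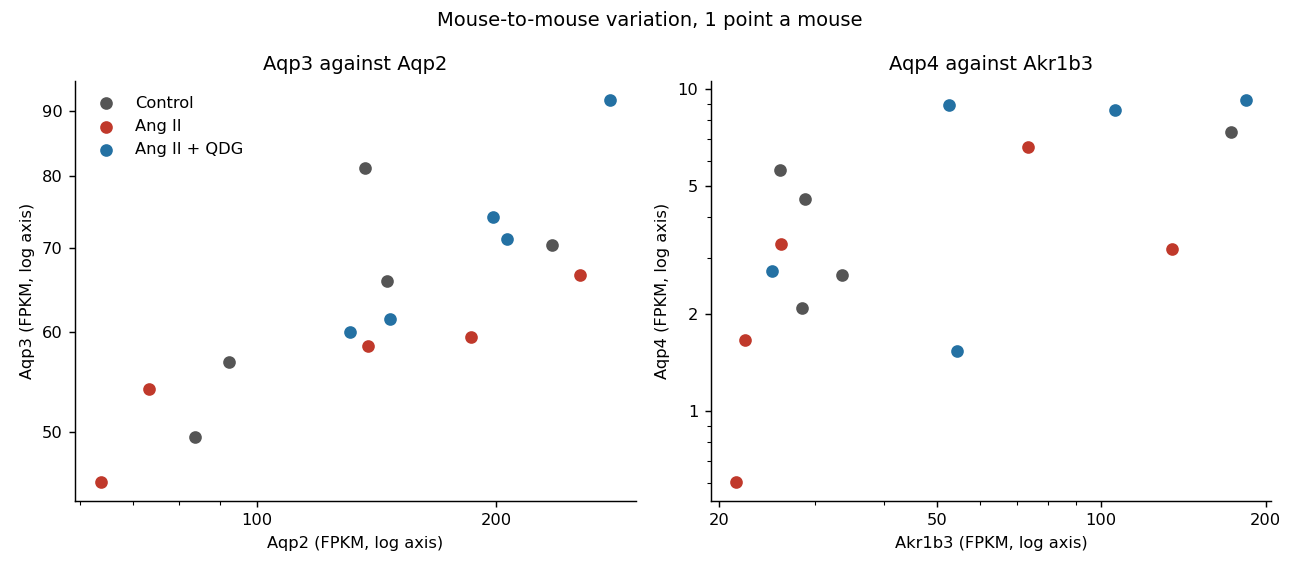
Aqp3 against Aqp2 (left) and Aqp4 against Akr1b3 (right) in FPKM on log axes, 1 point a mouse, coloured by group. Aqp3 climbs with Aqp2 in mice of all 3 groups, and the 5 mice with Akr1b3 from 73.5 to 184 FPKM include 4 of the 5 highest Aqp4 values.

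To compare the channels with the cells that carry them, the log2(FPKM + 1) of Aqp2, Aqp3, Aqp4 and Avpr2 was set against the mean log2(FPKM + 1) of 6 principal cell markers, including 2 subunits of the epithelial sodium channel. On this relative scale Aqp3 was lower in every Ang II mouse than in every Control mouse, 1.73 ± 0.14 against 2.33 ± 0.23 log2 units (SD, n = 5 each). What share of all genes would separate so on this scale was not worked out. The difference of −0.60 had an exact two-sided permutation p of 0.00794, the smallest that 5 against 5 can give, and 0.0952 after adjustment over the 12 tests, so it did not pass. A single test at that smallest p cannot pass the adjustment over 12 tests. In Ang II + QDG the relative Aqp3 level was 2.07 ± 0.16, higher than in Ang II by 0.34 (exact permutation p = 0.0238, adjusted p = 0.143). The mean of the 6 markers was 4.11 log2 units in Ang II and 3.69 in Control, a difference of 0.42, while Aqp3 itself differed by −0.17. That marker difference was carried by Scnn1b and Fxyd4, and none of the 6 markers passed the test. The mean of the other 4 differed by 0.08, and set against those 4, a choice made after seeing the data, the Aqp3 difference was −0.25 (exact permutation p = 0.214, adjusted p = 0.44). The relative Aqp3 value for Ang II vs. Control therefore rested on 2 marker genes. Between Ang II + QDG and Ang II the marker mean differed by −0.01. For Ang II vs. Control the relative difference to the 6 markers was −0.47 for Aqp2 (exact permutation p = 0.294), −0.93 for Aqp4 (exact permutation p = 0.0556) and −0.01 for Avpr2 (exact permutation p = 0.96). Set against the 4 markers without Scnn1b and Fxyd4, it was −0.13 for Aqp2 (exact permutation p = 0.786) and −0.59 for Aqp4 (exact permutation p = 0.294). For Avpr2 it was then 0.33 (exact permutation p = 0.294). None of the 12 tests passed after adjustment with either set of markers.

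Avpr2 (ENSMUSG00000031390, chromosome X, 73892102 to 73895502, plus strand), the Gs-coupled receptor at the head of this pathway, had the lowest level of the set. Control mice had 2.28, 1.85, 0.662, 0.529 and 0.552 FPKM, Ang II mice 1.16, 1.79, 1.77, 2.69 and 1.45, and Ang II + QDG mice 1.52, 2.17, 2.24, 1.68 and 2.85. Control mice 3 to 5 were below every other mouse, and Control mice 1 and 2 lay among the treated ones. For Ang II vs. Control the log2 fold change was 0.41 (SE 0.23, adjusted p = 0.313) and for Ang II + QDG vs. Control 0.57 (SE 0.23, unadjusted p = 0.0244, adjusted p = 0.275 from limma).

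The Avpr2 sum depended on how reads were divided between its 2 listed transcripts. ENSMUST00000033765, of 1812 bases, was listed in all mice at 0.265 to 1.85 FPKM. ENSMUST00000114395, of 936 bases, was listed at 0 in Control mice 2 to 5 and in Ang II mouse 1, at 1.17 FPKM in Control mouse 1, at 1.03 to 2.04 in the other 4 Ang II mice and at 1.06 to 1.89 in the 5 Ang II + QDG mice. The short transcript was thus listed above 0 in 1 Control mouse, 4 Ang II mice and all 5 Ang II + QDG mice. With 77 to 276 implied reads a mouse for the gene, a listed 0 does not show that the transcript was absent. Fewer transcripts were also listed for Control mice than for the others (41477 against 42310). Its log2 fold change was 1.02 in Ang II + QDG vs. Control (SE 0.28, unadjusted p = 0.00289) with an adjusted p of 0.242 over 20987 transcripts, of which 0.0143% passed. A short transcript receives a higher FPKM for the same reads, so the sum was repeated with each transcript weighted by its length. Weighted so, Avpr2 had log2 values of 0.24 for Ang II vs. Control (adjusted p = 0.618) and 0.36 for Ang II + QDG vs. Control (adjusted p = 0.525).

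**Figure D3:**
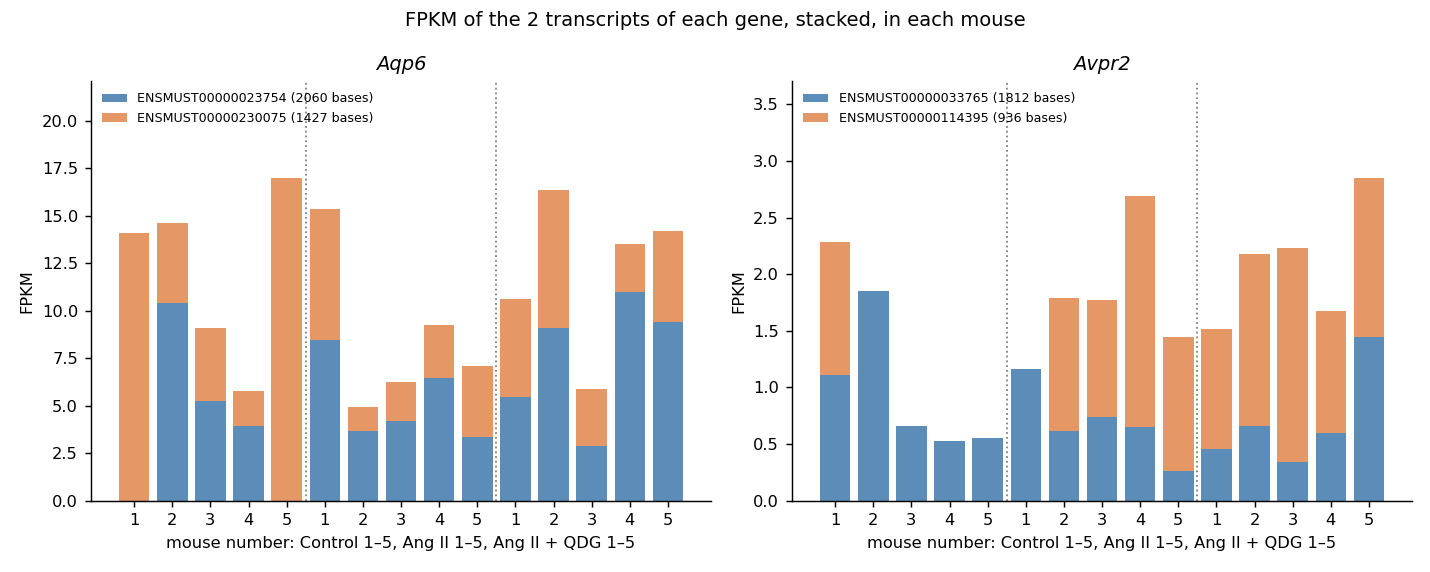
FPKM of the 2 listed transcripts of Aqp6 (left) and Avpr2 (right), stacked, in each mouse; dotted lines part the 3 groups. The short Avpr2 transcript is at 0 in Control mice 2 to 5 and Ang II mouse 1, and the long Aqp6 transcript is at 0 in Control mice 1 and 5.

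Aqp6 (ENSMUSG00000043144, chromosome 15, 99601400 to 99605477, plus strand), the vesicle channel of intercalated cells, lies 16852 bases beyond Aqp2. Control mice had 14.1, 14.6, 9.08, 5.77 and 17 FPKM, Ang II mice 15.4, 4.91, 6.23, 9.27 and 7.08, and Ang II + QDG mice 10.6, 16.4, 5.87, 13.5 and 14.2. Ang II mouse 1 stood above the other 4 of its group, and the groups overlapped. For Aqp6 the log2 fold change was −0.46 with Ang II (SE 0.33, adjusted p = 0.439), and with QDG it was 0.48 above Ang II (SE 0.33, adjusted p = 0.509). Its 2 transcripts changed places: ENSMUST00000023754 (2060 bases) was listed at 0 in Control mice 1 and 5, where ENSMUST00000230075 (1427 bases) had 14.1 and 17 FPKM against 1.23 to 7.29 in the other 13 mice. With the most abundant transcript alone the Ang II vs. Control value was 0.89 (adjusted p = 0.485), opposite in sign to the sum. Intercalated cell markers summed to 99 to 113 FPKM in Control and 121 to 165 in Ang II, and to 127 to 170 in Ang II + QDG. In Ang II vs. Control 1 of 7 passed the test, Slc26a4, the pendrin gene, which was higher (24.7 ± 2.01 FPKM in Control and 35.3 ± 7 in Ang II, SD, n = 5 each), where 4.95% of all genes were higher. Its log2 fold change of 0.49 (adjusted p = 0.0312) missed the threshold after quantile normalization and median scaling (0.39 in both, adjusted p = 0.0914 and 0.0972). The threshold was also missed without any 1 Control mouse or Ang II mouse 2 or 5 (0.38 to 0.52, adjusted p = 0.0502 to 0.0723). The same held without the 3 mice highest in adipocyte markers (0.53, adjusted p = 0.0634). Podocyte markers, from cells of the glomerulus, also had higher sums. They were 75.1 to 83.4 FPKM in Control, 101 to 127 in Ang II and 98 to 125 in Ang II + QDG. In Ang II vs. Control 2 of 3 were higher past the test, where 4.95% of all genes were higher. These 2 calls were not checked under the alternative settings. The part of these markers in the Aqp6 values was not tested.

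Aqp1 (ENSMUSG00000004655, chromosome 6, 55336432 to 55348555, plus strand), the constitutive channel of the proximal tubule, was the most abundant. Control mice had 352, 462, 365, 377 and 423 FPKM, Ang II mice 444, 264, 331, 432 and 321, and Ang II + QDG mice 439, 442, 549, 431 and 440. In Ang II, 3 mice lay below all Control mice and 2 among the highest of them, while 4 of 5 Ang II + QDG mice fell between 431 and 442. Between Ang II + QDG and Ang II the log2 fold change was 0.38 (SE 0.13, fold interval 1.07 to 1.59), the lowest unadjusted p of the set at 0.012, and its adjusted p was 0.16 from limma. For Ang II vs. Control it was −0.16 (SE 0.13, adjusted p = 0.509), and for Ang II + QDG vs. Control 0.22 (adjusted p = 0.47). The 8 proximal tubule markers had a median log2 fold change of −0.05 between Ang II + QDG and Ang II, with 3 above 0, 5 below 0 and none past the test. The most abundant of them, the kidney androgen-regulated gene Kap, averaged 2677 ± 1136 FPKM (SD, n = 5) in the Ang II mice without QDG and 6840 ± 2161 FPKM (SD, n = 5) with it. Control mice had 6639 ± 4519 FPKM of Kap (SD, n = 5), and single Control mice ran from 1922 to 13570. The phosphate transporter gene Slc34a1 averaged 2500 ± 463 FPKM in Ang II without QDG and 2250 ± 244 with it. The part of these markers in the Aqp1 value was not tested.

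Aqp7 (ENSMUSG00000028427, chromosome 4, 41033074 to 41048139, minus strand), the glycerol channel, lies 44582 bases from Aqp3. Control mice had 5.31, 11.7, 8.72, 5.78 and 5.14 FPKM, Ang II mice 11, 4.92, 2.48, 2.76 and 1.77, and Ang II + QDG mice 4.19, 4.1, 9.98, 5.02 and 4.49. All Ang II mice but mouse 1 were below every Control mouse. At a log2 value of −0.73 (SE 0.36), Ang II vs. Control showed the lowest value of the set, which did not pass (adjusted p = 0.254). Without Ang II mouse 1 it was −1.06 (adjusted p = 0.0555). That mouse and Control mouse 2, with the highest Aqp7 values, also had the highest adipocyte marker sums, at 99.4 and 44.5 FPKM. In contrast, Ang II + QDG mouse 5, with a sum of 41.9 FPKM, had 4.49 FPKM of Aqp7, and Ang II + QDG mouse 3, with 9.98 FPKM of Aqp7, had a sum of 4.24 FPKM. Aqp7 is known from fat cells, and the part of fat in these values was not tested. Without the 3 mice highest in adipocyte markers, an exclusion chosen after the data were seen, the log2 fold change was −0.89 (adjusted p = 0.105).

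Aqp11 (ENSMUSG00000042797, chromosome 7, 97724006 to 97738289, minus strand), whose loss is known to cause polycystic kidneys in mice, was the steadiest. Control had 20.2 ± 1.1 FPKM, Ang II 19.6 ± 2.09 and Ang II + QDG 21.8 ± 1.85 (mean and SD, n = 5 each). The Ang II vs. Control interval was 0.866 to 1.09 on the fold scale of FPKM + 1 (log2 fold change −0.04, SE 0.08, adjusted p = 0.79), which leaves out a change of 2-fold in either direction. Its within-group SD of 0.12 log2 units was larger than in 26.2% of 1673 genes of like level, compared with 92.6% for Aqp4.

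Set side by side, 7 of the 8 log2 fold changes were below 0 in Ang II vs. Control, the exception being Avpr2, and 8 of 8 were above 0 in Ang II + QDG vs. Ang II. Of the 7, Aqp2 (−0.05) and Aqp11 (−0.04) have no settled sign. With 1 mouse left out they ranged from −0.30 to 0.19 and from −0.09 to 0.01. The medians of the 8 genes in the 2 comparisons were −0.17 and 0.38, against 0.083 and −0.018 over all genes. These comparisons share the Ang II mice, and the genes vary together across mice, so the directions are not separate observations. Scaling the libraries mattered for all genes: 612 were higher and 123 lower in Ang II vs. Control at an adjusted p under 0.05, but 227 and 266 after quantile normalization and 214 and 287 after median scaling. In Ang II + QDG vs. Ang II the split was 65 higher and 159 lower, then 97 and 97, and 68 and 99, and in Ang II + QDG vs. Control 12 and 4, then 8 and 7, and 10 and 12. Neither scaling turned the sign of any of the 8 genes in Ang II vs. Control or in Ang II + QDG vs. Ang II.

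**Figure D4:**
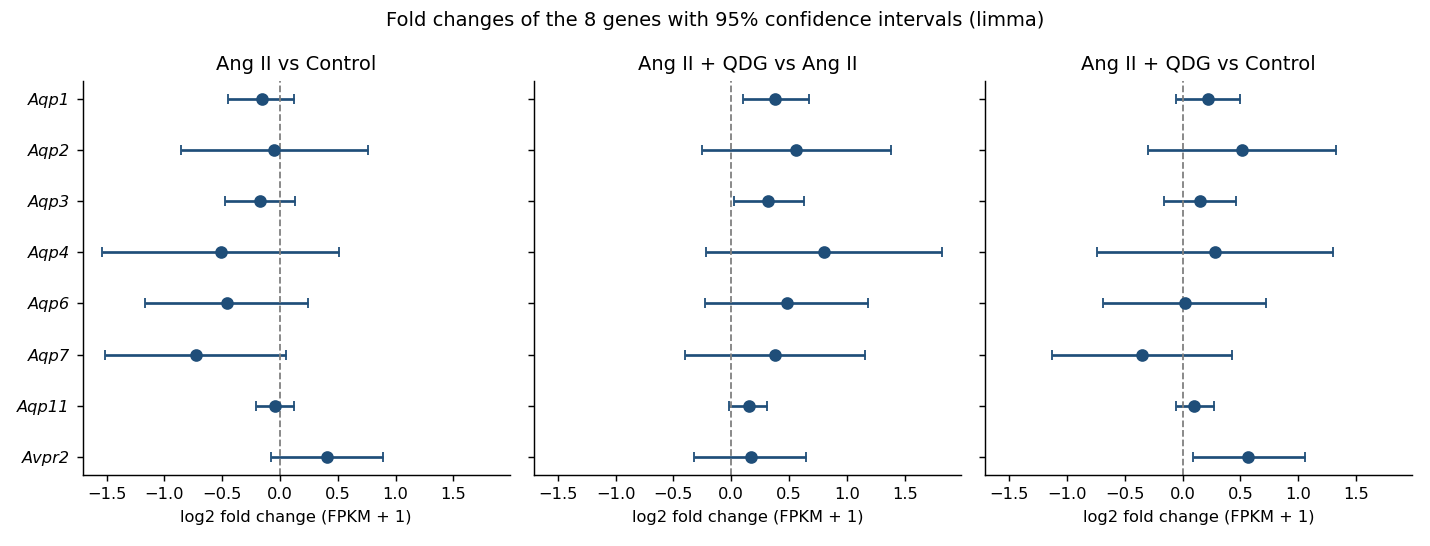
Log2 fold change of each gene (points, on the log2(FPKM + 1) scale) with its 95% confidence interval from limma in the 3 comparisons, 5 mice a group. The intervals of Aqp1 and Aqp3 in Ang II + QDG vs. Ang II and of Avpr2 in Ang II + QDG vs. Control leave out 0, and no adjusted p is under 0.05.

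After group means were removed, 4 of the 28 pairs of genes varied together across the 15 mice at an adjusted p under 0.05 by Pearson's r, and 1 by Spearman's rho (100000 permutations within groups, Benjamini-Hochberg over 28 pairs). That 1 pair was Aqp2 and Aqp3, the apical and basolateral channels of the principal cell, with r = 0.80 (permutation p = 0.00027, adjusted p = 0.00756) and rho = 0.80 (permutation p = 0.00095, adjusted p = 0.0266). Without the 2 mice farthest from the median of Aqp2, r was 0.81, and the pair passed in all 15 sets that left out 1 mouse. Aqp1 and Aqp2 had r = 0.84 (permutation p = 0.00188, adjusted p = 0.0263) and rho = 0.80 (permutation p = 0.00485, adjusted p = 0.0679), and r was 0.79 without the 2 mice farthest from the median. This pair lost the threshold without Control mouse 1, Control mouse 2 or Ang II + QDG mouse 3 (r = 0.82 to 0.83, permutation, adjusted p = 0.0543 to 0.0867).

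Aqp4 and Aqp6 had r = 0.72 (permutation p = 0.00513, adjusted p = 0.0389), rho = 0.58 (permutation p = 0.03, adjusted p = 0.28) and r = 0.77 without 2 mice. Aqp3 and Aqp7 had r = 0.68 (permutation p = 0.00555, adjusted p = 0.0389), rho = 0.55 (permutation p = 0.0401, adjusted p = 0.281) and r = 0.49 without 2 mice. The Aqp4 and Aqp6 pair fell short without any 1 Control or Ang II + QDG mouse (r = 0.62 to 0.73, permutation, adjusted p = 0.0505 to 0.152) and with a pseudocount of 0.1 (r = 0.69, permutation, adjusted p = 0.0536). The Aqp3 and Aqp7 pair fell short without Control mouse 1, 2, 3 or 4, Ang II mouse 1 or 5, or any 1 Ang II + QDG mouse (r = 0.60 to 0.72, permutation, adjusted p = 0.0505 to 0.154). Aqp2 and its receptor Avpr2 had r = 0.16 (permutation p = 0.603, adjusted p = 0.945) and rho = 0.15 (permutation p = 0.624, adjusted p = 0.979), and r = 0.13 without 2 mice. All values of a mouse come from 1 library.

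**Figure D5:**
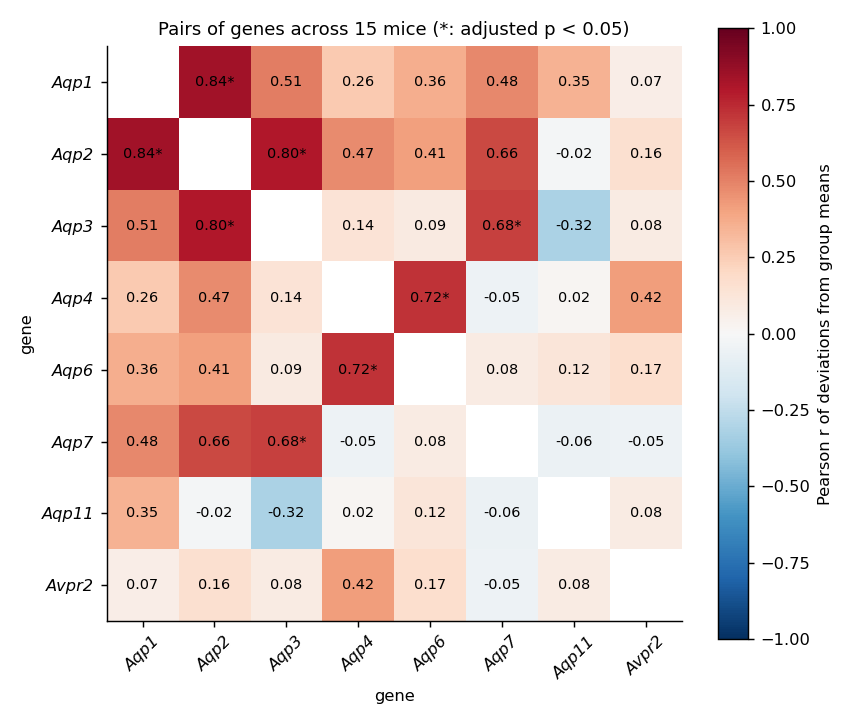
Pearson's r between each pair of the 8 genes across 15 mice, as deviations from group means on the log2(FPKM + 1) scale; asterisks mark an adjusted p under 0.05. The marked pairs are Aqp1 with Aqp2 (0.84), Aqp2 with Aqp3 (0.80), Aqp4 with Aqp6 (0.72) and Aqp3 with Aqp7 (0.68).

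By a rule set for each gene, the 3 genes with the most like pattern were named among those with a mean of at least 5 FPKM (Pearson's r of log2(FPKM + 1) over 15 mice, given as a description). For Aqp1 they were Wfdc15b (0.96), Pla1a (0.95) and Slco4c1 (0.94), the last of them an organic anion transporter of the proximal tubule. For Aqp2 they were Nccrp1 (0.94), Apela (0.91) and Scin (0.91), and for Aqp3 Rhbdd1 (0.89), Oard1 (0.83) and Apela (0.83). Apela, which encodes a peptide ligand of the apelin receptor, was among the 3 for both Aqp2 and Aqp3, and not for Aqp4. Aqp4 was nearest to S100a6 (0.81), Rpl7a-ps3 (0.79) and Mea1 (0.79), Aqp6 to Hat1 (0.80), Fabp5 (0.79) and Tprgl (0.78), and Aqp7 to Cops2 (0.83), Rdx (0.82) and Ctdspl (0.80). Aqp11 was nearest to Ndufs6b (0.83), Smco4 (0.83) and Xylt2 (0.82), and Avpr2 to Vdac2 (0.84), Kitl (0.83) and Nxf1 (0.83).

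Some signalling genes downstream of the V2 receptor passed the test in Ang II vs. Control, by small amounts. Of 19 tested genes from the receptor to cyclic AMP and protein kinase A, 2 were higher and none lower, where 4.95% of all genes were higher. Prkaca, the main catalytic subunit of protein kinase A, had 26.6, 31.4, 28.2, 30.8 and 31.6 FPKM in Control and 38.6, 37.2, 31.8, 38.4 and 37.2 in Ang II. Every Ang II mouse lay above every Control mouse, which held for 6.5% of all genes, with a log2 fold change of 0.29 (SE 0.07, adjusted p = 0.026). Prkar1a, a regulatory subunit, had a mean of 82.4 FPKM in Ang II against 73.2 in Control, again without overlap (log2 fold change 0.17, SE 0.04, adjusted p = 0.0289). Both calls were lost after quantile normalization (adjusted p = 0.0911 and 0.243) and median scaling (0.0793 and 0.416). Prkaca also fell short without Control mouse 1 or 3 or Ang II mouse 1, 2, 4 or 5 (0.0517 to 0.0647), and Prkar1a without Control mouse 3 or 4 or Ang II mouse 1 or 5 (0.06 to 0.0739). Without the 3 mice highest in adipocyte markers the adjusted p was 0.0586 and 0.0781, at log2 fold changes of 0.29 and 0.16. For Prkar1a the adjusted p was 0.109 with the most abundant transcript and 0.054 with length weighting. Against Ang II and against Control, no gene of the 19 passed in Ang II + QDG. An unadjusted p under 0.05 was found for 0 and 5 of the 19, and for 16.4% and 14.4% of all genes.

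Of 28 tested genes for the trafficking and turnover of aquaporin 2, 2 were higher and none lower in Ang II vs. Control, near the 4.95% of all genes that were higher. Ezr, which encodes the membrane to actin linker ezrin, had 137, 151, 145, 139 and 148 FPKM in Control and 156, 172, 184, 157 and 181 in Ang II, with no overlap (log2 fold change 0.24, SE 0.05, adjusted p = 0.0225). In Ang II + QDG it had 144 to 156 FPKM, lower than in Ang II by a log2 value of −0.19 that did not pass (adjusted p = 0.0881). Vamp2, a vesicle protein in the fusion of aquaporin 2 vesicles, had 21 to 33 FPKM in Control and 32.7 to 44.9 in Ang II (log2 fold change 0.61, SE 0.14, adjusted p = 0.0274). Both calls were lost under quantile normalization (adjusted p = 0.156 and 0.0707) and median scaling (0.261 and 0.0591). Ezr fell short without Control mouse 1 or Ang II mouse 2 or 5 (0.0504 to 0.0574), and Vamp2 without Control mouse 1, 3, 4 or 5 or Ang II mouse 2 or 5 (0.0537 to 0.0671) and with its most abundant transcript alone (0.0506). None of the 28 passed in the other 2 comparisons. In each, 2 of the 28 had an unadjusted p under 0.05. Of all genes, 16.4% did so in Ang II + QDG vs. Ang II and 14.4% in Ang II + QDG vs. Control.

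Of 7 other receptors of the collecting duct that were tested, 1 fell in Ang II + QDG vs. Ang II, where 1.29% of all genes were lower. This was Avpr1a, the V1a vasopressin receptor, which couples to calcium signalling. It had 3.97, 3.05, 3.16, 3.36 and 3.41 FPKM in the Control mice, 2.86, 5.41, 3.07, 3.86 and 4.06 with Ang II, and 1.75, 2.06, 2.47, 2.38 and 1.79 after QDG was added. Every Ang II + QDG mouse was below every mouse of the other groups. Such a separation downward was found in 3.44% of all genes against Ang II and 0.858% against Control. Against Ang II the log2 fold change was −0.63 (SE 0.13, adjusted p = 0.0291), and against Control −0.51 (SE 0.13, adjusted p = 0.113). In Ang II + QDG vs. Ang II it remained past the threshold after quantile normalization and median scaling, and lost it without Ang II mouse 2, 4 or 5 or Ang II + QDG mouse 2 or 5 (log2 fold change −0.63 to −0.53, adjusted p = 0.0506 to 0.0663) and without the 3 mice highest in adipocyte markers (−0.67, adjusted p = 0.0748).

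Of 12 tested genes of the medullary gradient and the osmotic response, none passed in either comparison of Ang II + QDG. An unadjusted p under 0.05 was found for 3 of the 12 against Ang II and 2 against Control. The shares of all genes were 16.4% and 14.4%. Of 10 tested transcription factors of the collecting duct, Gata2 rose in Ang II vs. Control and none fell, where 4.95% of all genes were higher. Gata2, a factor that is known to act on the Aqp2 gene, had 4.07, 6.59, 4.04, 4.85 and 5.3 FPKM in Control and 8.06, 6.52, 7.99, 7.08 and 8.63 in Ang II, where mouse 2 lay just below Control mouse 2 (log2 fold change 0.55, SE 0.11, adjusted p = 0.0164). Gata2 stayed past the threshold under both scalings (0.0324 and 0.0307) and in every set that left out 1 mouse, and missed it with its most abundant transcript alone (0.52). None of these 10 genes passed in the other comparisons. Of 5 further aquaporin genes, only Aqp8 was listed, at 0.0959 to 3.25 FPKM, and it did not pass the filter.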

How the data were processed

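Renal tissue of 15 mice, 5 a group, was sequenced by the authors as paired-end reads after ribosomal RNA depletion. The methods add a poly(A) selection step that the labels do not give, so the library type is uncertain. The submitters' processing notes name mm10 and limma, and the aligner and assembler are not given in the sources used here. Each deposited file holds a single column of values per transcript, and the authors state no unit. The values were read as FPKM: multiplied by transcript length, 98.7% to 98.8% of those under 200 reads came out whole (tolerance 0.1 read) in units of 1 read, which also gave the depth. The deposited FPKM values cover 40054 transcripts in all 15 mice, of which 11141 were assembled by the authors without a gene name and could not be assigned, so reads of a gene may sit in them. An Aqp3 transcript with a retained intron was listed for Ang II and Ang II + QDG mice only and was left out.

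Of 31301 Ensembl transcript identifiers, 31244 matched GENCODE M21 (GRCm38). FPKM was added per gene, and log2(FPKM + 1) was tested with limma 3.58.1 (trend, R 4.3.3) in 1 model of all mice, for genes reaching 1 FPKM in 5 mice or more, with Benjamini-Hochberg adjustment. The pseudocount makes fold changes of low genes smaller. Exact and random permutation tests used scipy 1.17.1. The code was tested on simulated data. Nothing states whether mice of a group were housed or prepared apart. The p-values measure only the spread between these samples. Each Control mouse had 41477 transcripts listed, and each Ang II or Ang II + QDG mouse had 42310. This difference in the transcript list goes with group in every comparison with Control. Its part in those comparisons was not tested. The genes and lists were chosen with earlier results of these data known. Named genes were all 8 members, the genes of each list with an adjusted p under 0.05 (at most 4), otherwise the 2 most abundant, and the 3 genes most like each member. Alternatives were a pseudocount of 0.1, no filter, quantile normalization, median scaling, protein coding transcripts, the most abundant transcript and each mouse left out. Length weighting and the exclusion of 3 mice high in adipocyte markers were chosen after the data were seen. A result for 1 gene of these lists is not reported here.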

Additional observations from a re-analysis of the deposited data

Results flagged for a closer look

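Values far from the rest of their group, by the ratio of the gap to the group's range (critical value 0.71 for 5 mice), were found in 3 of 45 groups examined, and chance flags about 1 group in 20. Ang II + QDG mouse 3 stood apart for Aqp1, at 549 FPKM (ratio 0.911), and for Aqp7, at 9.98 FPKM (ratio 0.842). The same mouse had the highest Aqp2 and Aqp3 levels of all mice, 278 and 91.9 FPKM, and its adipocyte marker sum was 4.24 FPKM, the lowest of its group. Ang II mouse 3 stood apart for Prkaca, at 31.8 FPKM (ratio 0.789), the lowest of its group and just above the highest Control mouse.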

How the results depend on the processing

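The count of the 8 genes past an adjusted p under 0.05 was 0 in each comparison under all 23 alternatives, with the lowest adjusted p at 0.0555 for Ang II vs. Control, 0.0856 for Ang II + QDG vs. Ang II and 0.15 for Ang II + QDG vs. Control. In Ang II + QDG vs. Ang II, 8 of 8 values stayed above 0 in 22 of the 23 alternatives, and Avpr2 was at 0.00 without the 3 mice highest in adipocyte markers. The sign of Aqp6 in Ang II vs. Control was opposite with the most abundant transcript (0.89), and in Ang II + QDG vs. Control with quantile normalization (−0.05) and median scaling (−0.07). With 1 mouse left out, the values ranged from −0.30 to 0.19 for Aqp2 and −0.09 to 0.01 for Aqp11 in Ang II vs. Control, and from −0.20 to 0.23 for Aqp6 in Ang II + QDG vs. Control. Relative to principal cell markers 18 alternatives were run and no adjusted p was under 0.05, which says little, since a single complete separation of 5 against 5 gives 0.0952 over 12 tests. Avpr2 in Ang II vs. Control turned to 0.25 with a pseudocount of 0.1 and ranged from −0.18 to 0.26 with 1 mouse left out, and Aqp4 in Ang II + QDG vs. Control ranged from −0.35 to 0.28. With the 4 markers left without Scnn1b and Fxyd4, chosen after seeing the data, Avpr2 in Ang II vs. Control was 0.33, and in Ang II + QDG vs. Control Aqp3 was 0.11 and Aqp4 0.24. The number of pairs of genes past the threshold was 4 and ranged from 1 to 6 with 1 mouse left out, and was 3 with a pseudocount of 0.1. The cause of these shifts was not tested. No paired analysis was possible because the mouse numbers only name the samples and no label links mice of different groups. Depth limits Avpr2 most, with 77 to 276 implied reads a mouse.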
